A study of Mus musculus and Homo sapiens with 22 samples.

Results

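The 10 genes described here make microRNAs or carry out their silencing: Drosha, Dgcr8, Dicer1, Ago1, Ago2, Ago3, Tnrc6a, Tnrc6b, Tnrc6c and Lin28a. They were taken by name, with the upper-case symbols for human cells. Earlier results of these data were known when they were chosen. They are 10 of the 56196 genes in the RNA-seq count files. N6-methyladenosine (m6A) sites were mapped by miCLIP2, in which an m6A antibody is crosslinked to RNA with UV light and the modified A is read at single-nucleotide resolution. The machine learning classifier m6Aboost then separated sites from background. Site lists were analysed for wild-type (WT) mouse embryonic stem cells (mESC, 3 replicates merged in 1 list, 25456 sites), for HEK293T, a human embryonic kidney cell line (4 replicates merged, 36556 sites), and for mouse heart at 4 RNA inputs of 1 library each (46421 sites at 1000 ng and 8845 at 300 ng). Gene counts came from 3 WT and 3 Mettl3 knockout (KO) mESC libraries.

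All mESC samples were grown with serum and the cytokine LIF, and the KO cells lacked Mettl3, the enzyme of the complex that writes m6A in mRNA. Both genotypes came from an earlier publication, so the KO stands for the cell material made there, and clonal differences and the loss of Mettl3 cannot be told apart. Heart RNA was poly(A)+ RNA from mouse heart tissue, and the age and strain of the animals are not given in the sources used here. The titles of the smaller heart samples write µg where the site lists and the study's methods use ng, and ng is used here. Each list holds 1 score per site over all replicates and no read depth, so site numbers have no spread between replicates.

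MicroRNAs are cut from long primary transcripts in the nucleus by the Microprocessor, which consists of the nuclease Drosha and its RNA-binding partner Dgcr8. After export, Dicer1 cuts the hairpin to a short duplex, an Argonaute protein keeps 1 strand as its guide, and a Tnrc6 scaffold protein links Argonaute to the deadenylases that shorten the tail of the target mRNA. Lin28a, a marker of embryonic stem cells, binds let-7 precursors and blocks their maturation. m6A is placed mainly in the motif DRACH (D is A, G or T, R is A or G, H is A, C or T), often in long exons and near stop codons, and it can mark mRNAs for decay.

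Gene counts per RNA-seq library lay between 22746733 and 27254245. For Mettl3 itself the WT libraries counted 560, 698 and 612 reads and the KO libraries 462, 669 and 457, in the order of replicates 1 to 3, a log2 fold change of −0.50 ± 0.14 (SE, adjusted p = 0.0134). It was called with the replicate block (adjusted p = 0.00281), with DESeq2 (0.00661), without KO replicate 2 (0.00685) and without replicate 2 of both genotypes (0.00971). Counts over the whole gene do not show whether the deleted part was read. The 8 mESC markers summed to 4498 to 4692 CPM (gene counts scaled to a common library size) in WT and 3307 to 3375 in KO. Of the 8, 2 were called lower in KO (25.0%, against 29.7% of all genes tested). The 8 feeder fibroblast markers summed to at most 13.2 CPM in WT and 11.8 in KO, and Lum and Dcn had at most 3 counts in every library. Of the 3 feeder markers that could be tested, Thy1 was called higher (log2 fold change 1.19) and Pdgfrb lower (−0.88). The 5 primitive endoderm markers summed to 5.58 to 8.68 CPM in WT and 5.70 to 6.85 in KO, the 5 neural markers to 65.7 to 109.8 and 81.5 to 99.1, and the 5 cardiomyocyte markers to 40.8 to 93.0 and 178.7 to 220.0. Nearly all of the last sum was Ttn (53.9 ± 28.1 CPM in WT and 192.5 ± 22.4 in KO, SD, n = 3, called higher), whereas Myh6, Ryr2 and Tnnt2 were not called and Actc1 had at most 3 counts in every library. Among the primitive endoderm markers Gata4 was called lower (log2 fold change −1.59) and Foxa2 higher, with 4 counts over the WT and 84 over the KO libraries. Olig2, a neural transcription factor, had 1 count over the WT libraries and 772 over the KO libraries. The other neural markers did not share this rise. Sox1 (−0.57), Nes (−0.38) and Tubb3 (0.32) were not called, and Pax6 had too few counts to be tested. The part of these cell states in the results below was not tested. In these bulk samples, fewer cells of a type and less RNA per cell cannot be told apart. The cardiomyocyte markers held 221 sites in the heart list at 1000 ng, 195 of them in Ttn, and 0 in mESC, whereas the mESC markers held 66 sites in mESC and 6 in heart. Replicate 2 stood apart in both genotypes: it gave the highest CPM of its genotype for 6 of the 9 detected genes in WT and 8 of 9 in KO, against 34.3% and 38.9% of all genes tested.

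Sites were listed in 8 of the 10 genes in mESC, in 7 in heart at 1000 ng, in 4 in heart at 300 ng and in 5 in HEK293T. Among protein-coding genes whose WT CPM lay in the range of the 9 detected genes, 79.1% had at least 1 mESC site. The mESC list held 83 sites in these genes, the heart list at 1000 ng 101, the heart list at 300 ng 39 and the HEK293T list 32, all of them in exons. No site of these genes was listed at 100 or 50 ng, where the whole lists held 1112 and 248 sites. At 300 ng, 38 of the 39 sites (97.4%) were also in the list at 1000 ng, against 93.4% of all sites at 300 ng. RNA-seq counts of heart and HEK293T were not analysed here, so for a gene with no listed site an unmodified transcript and too few reads cannot be told apart.

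**Figure D1:**
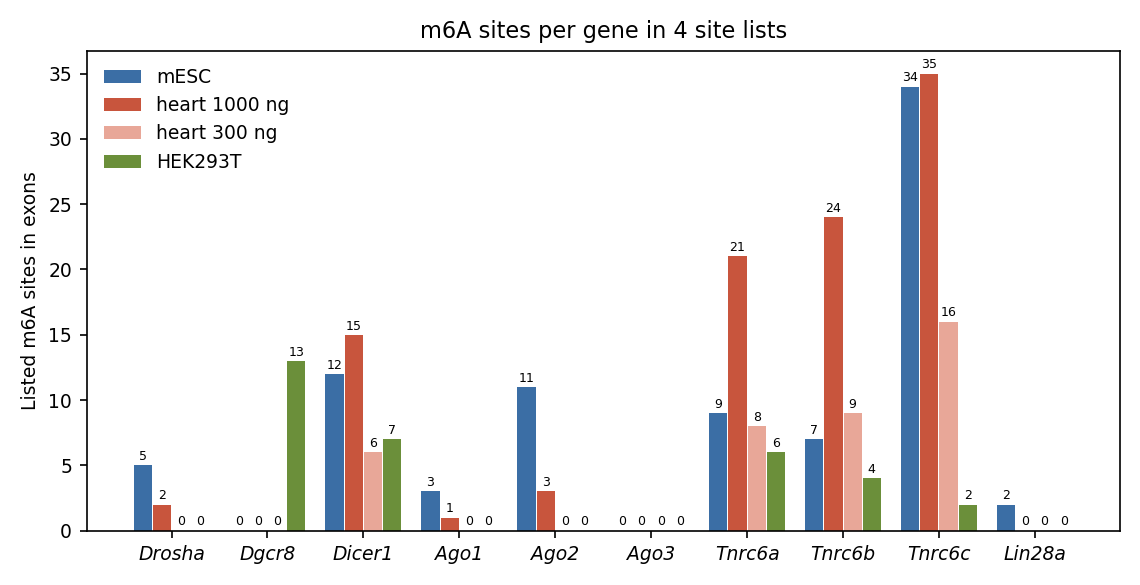
Number of m6A sites listed in the exons of each gene (y axis, with the number on each bar) in WT mESC, mouse heart at 1000 and 300 ng of RNA, and HEK293T cells (human orthologue under the mouse symbol). Tnrc6c carried 34 sites in mESC and 35 in heart but 2 in HEK293T, whereas DGCR8 carried 13 in HEK293T and its mouse orthologue 0. The 0 of mouse Dgcr8 is not read as a lack of m6A, since its exons are also on a patch scaffold.

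Drosha, the nuclease of the Microprocessor (chr15:12824815-12935291, plus strand, GRCm38), was an abundant mRNA of the pathway that did not pass the test between genotypes. It had 180.1, 214.1 and 217.7 CPM in WT and 191.5, 222.2 and 183.5 in KO. The groups overlapped, and the log2 fold change was −0.04 ± 0.12 (SE, adjusted p = 0.828), with a sign that turned positive when libraries were scaled by size only (0.07). The gene held 5 mESC sites, of which 3 lay in the 834-nt coding exon 4, 1 in exon 18 and 1 in the 3′ UTR, and 2 sites in heart. The site with the highest m6Aboost score (0.9102, on a scale from 0 to 1) was the A at position 12935160 in the 3′ UTR, which was also listed in heart. It is shown with 10 bases on each side and its 5-base motif in capitals.
Drosha, 3′ UTR: ctttctaaGAACTgtgactgt

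Human DROSHA had 0 listed sites in HEK293T. Of the 5 mouse windows, 2 were found in the human DROSHA transcript with at most 4 mismatches, both on a DRACH motif.

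Dgcr8, the partner of Drosha (chr16:18253948-18289246, minus strand), had 0 counts in all 6 libraries and was therefore not tested. This 0 was shared by its surroundings: 10 neighbouring protein-coding genes, Dgcr8 included, were at 0 in every library. RefSeq places Dgcr8 also on 1 patch scaffold of GRCm38.p6, where all 15 of its exon stretches (7696 bases) were found whole and identical, and 9 of the 10 genes of the run are on the same patch. Among protein-coding genes that are also on a corrective patch, 208 of 257 (80.9%) were at 0 in all libraries, against 3242 of 20241 (16%) of those on no patch. Reads aligned to more than 1 place made up 13.9 to 15.2% of the lines of each library. Whether this is where the reads of Dgcr8 went was not tested, and the 0 is not read as a lack of expression. The mESC and heart lists held 0 sites in the gene body on either strand. The study kept only uniquely mapping miCLIP2 reads, and whether reads of Dgcr8 were lost there was not tested. These 0 sites are therefore not read as a lack of m6A. None of the other 9 genes is on a patch.

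In HEK293T, DGCR8 (chr22:20080221-20111877, plus strand, GRCh38) held 13 sites, the largest number of the human genes here, and 354 genes of that list held more. Of these, 9 lay in the 3′ UTR and 4 in coding sequence, and 6 were within 400 nt of the stop codon. The highest score was 0.9652 at position 20110340 in the 3′ UTR.
DGCR8, 3′ UTR: gaatggatGGACTcagcgact

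The coding exon 2 of DGCR8 also contains the hairpin of MIR1306, a microRNA gene (chr22:20086058-20086142), and 2 of the DGCR8 sites lay inside it, at hairpin bases 55 and 77. The site at base 55 was outside DRACH (motif GGACG, score 0.7686), and the site at base 77 was on GGACA (score 0.6861). Starting at the A of the first of these sites, the human sequence matched mouse miR-1306-3p over its 21 bases with 0 mismatches. The mature sequence is given with its seed, bases 2 to 8, in capitals, from RefSeq.
DGCR8, position 20086112: gaggtaatGGACGttggctct
DGCR8, position 20086134: gtggtgatGGACAgtccgaac
mmu-miR-1306-3p: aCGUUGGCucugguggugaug

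The list does not tell whether these sites were read from the DGCR8 mRNA or from the primary transcript of the microRNA. Mouse Mir1306 (chr16:18284239-18284317, minus strand) differs from the human hairpin at 1 base of 79 without gaps, and no site was listed there. This hairpin lies in an exon of mouse Dgcr8 that is also on the patch scaffold. The missing site is therefore not read as a lack of m6A or as a difference between species. The other sites of DGCR8 outside DRACH were at position 20110101 (GGACG, the coding part of the last exon) and position 20110457 (GCACT, the 3′ UTR).

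Dicer1, the cytoplasmic nuclease (chr12:104687742-104751952, minus strand), had higher values in all 3 KO libraries than in any WT library. The gene missed the threshold of the main test, which fits genotype without pairing. Its CPM was 138.4, 146.6 and 145.1 in WT and 179.7, 212.3 and 174.2 in KO. The groups did not overlap and differed by a log2 fold change of 0.40 ± 0.11 (SE, adjusted p = 0.0137, edgeR quasi-likelihood test, threshold 0.01). The call was made when replicate numbers were fitted as a block (0.39, adjusted p = 0.00243), with DESeq2 (adjusted p = 0.00614) and without the filter on low counts (adjusted p = 0.00397), and over all settings tried the adjusted p ran from 0.00243 to 0.0582.

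Dicer1 held 12 sites in mESC, 15 in heart at 1000 ng and 6 in heart at 300 ng, and 11 of the 12 mESC sites were also in the heart list. In mESC, 8 sites lay in exon 23 (871 nt), 3 in exon 21 (781 nt) and 1 in the last exon. Exon 23 makes up 8.8% of the transcript. In it 8 of the 17 DRACH motifs were listed (47.1%, 95% Wilson interval 26.2 to 69.0, counting error only), against 4 of 206 in the rest (1.9%, 0.8 to 4.9). Human DICER1 held 7 sites, 3 in the matching long exon (889 nt) and 4 in a 781-nt exon upstream of it. 3 mouse sites in both the mESC and the heart list had a listed human site whose 21-base window differed at 4 positions or fewer. These windows are set side by side, because they are positions of the same transcript listed in both species.
Dicer1, mouse 104702587, score 0.9293: ctcctcaaGGACTcttggccc
DICER1, human 95103531, score 0.8717: ctcctcaaGGACTcttggccc
Dicer1, mouse 104696681, score 0.7965: agcatagcGGACTgtgtggag
DICER1, human 95096238, score 0.6366: agcatagcGGACTgtgtggaa
Dicer1, mouse 104702567, score 0.8033: ccaatccgGGACTgattctcc
DICER1, human 95103511, score 0.6611: ccaatcctGGACTtattcttc

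The windows of the first pair were identical, those of the other two had 1 and 3 mismatches. The single DICER1 site outside DRACH was at position 95103569 (GGATT, score 0.5231), in the same 781-nt exon as 3 others.

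The Argonautes are the proteins that hold the guide, and Ago2 is the one with slicing activity. They carried few coding sites. Ago2 (chr15:73095844-73184935, minus strand) was the gene with the highest CPM, at 413.5, 450.2 and 358.3 in WT and 314.5, 420.5 and 299.7 in KO. The groups overlapped (log2 fold change −0.24 ± 0.15, SE, adjusted p = 0.214). Ago1 (chr4:126435012-126468583, minus strand) had 100.8, 92.0 and 110.8 CPM in WT and 80.7, 92.3 and 79.4 in KO, which also overlapped (−0.27 ± 0.11, SE, adjusted p = 0.0748).

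Ago3 (chr4:126331704-126429556, minus strand), the neighbour of Ago1, was lower in KO. It had 37.7, 38.5 and 31.2 CPM in WT and 20.7, 24.2 and 20.7 in KO. All 3 KO libraries lay below all WT libraries, and the level was 1.64-fold lower in KO (log2 fold change −0.71 ± 0.13, SE, adjusted p = 0.00155). The call was lost when libraries were scaled by size only (adjusted p = 0.0138, log2 fold change −0.61) and also without KO replicate 1 (adjusted p = 0.0117, −0.67). Ago3 was also the only detected gene of the 9 with no m6A site in mESC, and it had none in heart or HEK293T.

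Ago2 held 11 mESC sites, all in the last exon, 10 of them in its 11064-nt 3′ UTR, and only 1 within 400 nt of the stop codon. In heart it held 3 sites, and 2 of the 11 mESC sites were listed there. 4 of its mESC sites scored above 0.93, and the highest mESC score in these genes was at position 73105480 (0.9628). The 3 sites of Ago1 lay within 400 nt of its stop codon in the 3′ UTR, the highest at position 126439184 (0.7731).
Ago2, 3′ UTR, position 73105480: agaccattGAACTgagaaggg
Ago1, 3′ UTR, position 126439184: agtgctaaAGACTcatgctca

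The mouse sites outside DRACH were all in Ago2. They are shown because each differs from the motif in the bases before the A: the first is in the 3′ UTR and the second in the coding part of the last exon in mESC, and the last is in the 3′ UTR in heart. The first 2 had scores of 0.5915 and 0.6192, near the lower end of the list at 0.50.
Ago2, position 73106208: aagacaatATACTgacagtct
Ago2, position 73106918: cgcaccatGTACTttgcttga
Ago2, position 73106557: catccaatTTACTtgttttta

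AGO1, AGO2 and AGO3 held 0 sites in HEK293T, although all 3 Ago1 windows were found in the human AGO1 transcript with at most 4 mismatches on a DRACH motif. For Ago2, 3 of the 11 windows were found, 1 of them on DRACH.

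Tnrc6a, Tnrc6b and Tnrc6c encode the scaffold proteins of silencing, also called GW182 proteins. Tnrc6a (chr7:123123885-123195296, plus strand) had 113.9, 125.1 and 102.1 CPM in WT and 118.9, 138.4 and 114.9 in KO, and the groups overlapped (log2 fold change 0.13 ± 0.12, SE, adjusted p = 0.406). Tnrc6b (chr15:80711313-80941085, plus strand) had 82.5, 93.5 and 86.0 CPM in WT and 68.3, 94.2 and 72.7 in KO, again with overlap (−0.16 ± 0.13, SE, adjusted p = 0.360). In both genes replicate 2 was the highest library of each genotype.

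Tnrc6c (chr11:117654289-117763439, plus strand) had 75.2, 99.2 and 81.1 CPM in WT and 51.1, 82.0 and 48.5 in KO. KO replicate 2 reached into the WT range, and the log2 fold change of −0.49 ± 0.19 (SE) did not pass the test (adjusted p = 0.0599). Within replicate numbers the KO library was lower each time, by −0.56, −0.27 and −0.74 on the log2 scale. Fitted with replicate numbers as a block, the gene was called lower (−0.52, adjusted p = 0.00051), as it was without KO replicate 2 (−0.77, adjusted p = 0.00314), without replicate 2 of both genotypes (−0.66) and without the filter on low counts (−0.46). Over all settings tried the adjusted p of Tnrc6c ran from 0.00051 to 0.206.

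Tnrc6c was among the transcripts with the most sites of all: with 34 sites in mESC it was exceeded by 1 gene, and with 35 in heart at 1000 ng by 13. This is 3.84 sites per kilobase of its longest coding transcript in mESC, against 1.10 for Tnrc6a and 0.404 for Tnrc6b. In heart the densities were 3.96, 2.57 and 1.39. Tnrc6a held 9 mESC and 21 heart sites and Tnrc6b 7 and 24, while the whole heart list at 1000 ng was also the longer one, with 46421 sites against 25456 in mESC.

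The sites of the 3 paralogues were gathered in the same part of the gene, a long internal coding exon early in the coding sequence. This is exon 6 of Tnrc6a (chr7:123169536-123172118, 2583 nt), exon 8 of Tnrc6b (chr15:80878867-80881206, 2340 nt) and exon 5 of Tnrc6c (chr11:117720950-117723550, 2601 nt). In mESC it held 6 of 9, 7 of 7 and 25 of 34 sites, and in heart 16 of 21, 18 of 24 and 27 of 35. The remaining sites were in the last exon, apart from 1 mESC site in exon 4 of Tnrc6c. In HEK293T the matching exon held 5 of 6 sites in TNRC6A, 4 of 4 in TNRC6B and 0 of 2 in TNRC6C.

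**Figure D2:**
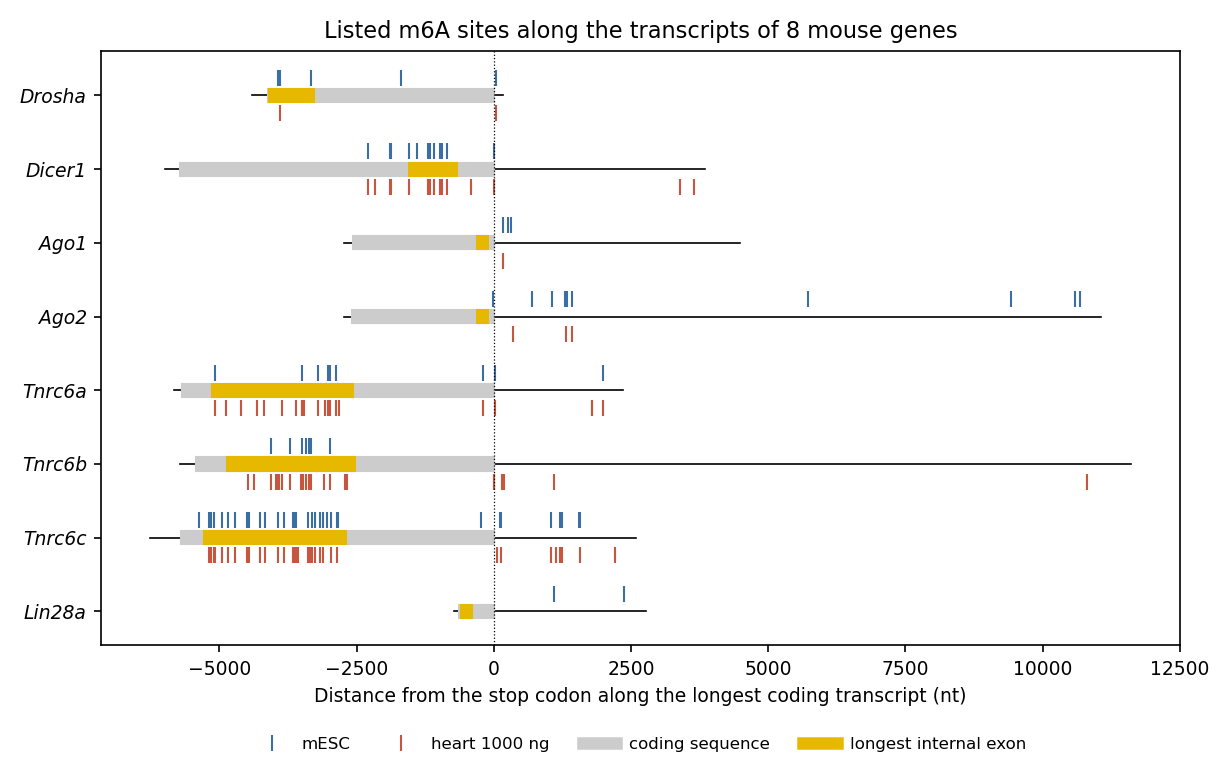
Positions of the listed m6A sites along the longest coding transcript of 8 mouse genes (x axis, distance from the stop codon in nt, with the 3′ UTR to the right), WT mESC above and heart at 1000 ng below each line. Grey marks the coding sequence and yellow the longest internal exon, in which 25 of 34 mESC sites of Tnrc6c and 8 of 12 of Dicer1 lay, whereas 10 of 11 sites of Ago2 were in the 3′ UTR.

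These exons are rich in DRACH motifs, so sites were also set against the motifs present. In Tnrc6c, 25 of the 77 motifs of exon 5 were listed in mESC (32.5%, 95% Wilson interval 23.1 to 43.5) and 9 of the 125 elsewhere in the transcript (7.2%, 3.8 to 13.1). In Tnrc6b the shares were 7 of 76 in the exon (9.2%, 4.5 to 17.8) and 0 of 299 elsewhere (at most 1.3%). In Tnrc6a they were 6 of 66 (9.1%, 4.2 to 18.4) and 3 of 111 (2.7%, 0.9 to 7.6), and these intervals overlapped. In heart the exon shares were 24.2% in Tnrc6a, 23.7% in Tnrc6b and 35.1% in Tnrc6c, against 4.5%, 2.0% and 6.4% elsewhere. Motifs of 1 transcript are not independent of each other, and the classifier uses the transcript region and the surrounding sequence among its inputs, so position and motif are not independent of how sites were called.

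**Figure D3:**
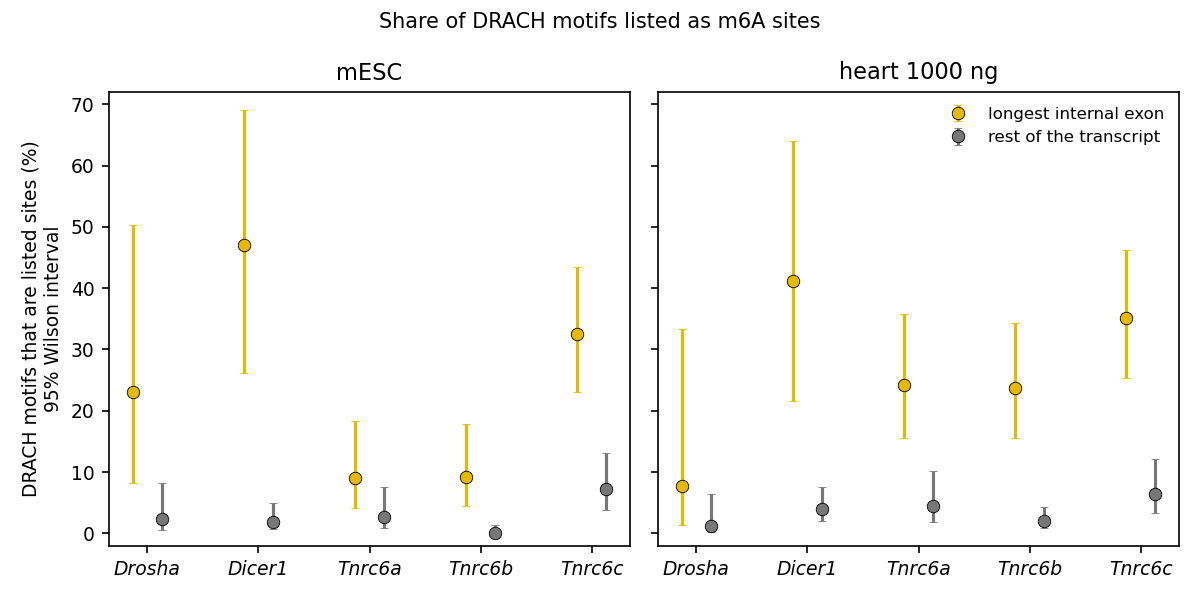
Percent of DRACH motifs that were listed m6A sites (y axis) in the longest internal exon (yellow) and in the rest of the longest coding transcript (grey) of 5 mouse genes, in WT mESC (left) and heart at 1000 ng (right). Points are shares and bars 95% Wilson intervals for counting error, and in Dicer1, Tnrc6b and Tnrc6c the intervals of exon and rest do not overlap in either list. Not drawn are Ago1, Ago2 and Lin28a, where in mESC 0 of 6, 0 of 5 and 0 of 1 motifs of that exon were listed. Elsewhere in these transcripts 3, 9 and 2 motifs were listed.

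The highest mESC scores in the 3 genes were 0.8931 in Tnrc6a, 0.8456 in Tnrc6b and 0.889 in Tnrc6c, each in the long exon. The Tnrc6a site also lies in an exon of Gm45846, a second gene annotated over it. Its sequence and that of Tnrc6c are shown, since neither is on the common motif GGACT.
Tnrc6a, position 123169605: tctacaagTGACTgtagcaca
Tnrc6c, position 117723128: ccaggtacAAACTggggggag

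1 window was identical in 2 paralogues and in both species. It was listed in Tnrc6c at position 117722593 in mESC and heart, in Tnrc6a at position 123171191 in heart, and in human TNRC6A at position 24790890. This window alone therefore does not tell the 2 mouse genes apart.
Tnrc6c and Tnrc6a, mouse, and TNRC6A, human: tgacaatgGGACAgaggcctg

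Sites matched between mESC, heart and HEK293T numbered 1 in Tnrc6a, at position 123171179, and 2 in Tnrc6b, at positions 80880240 and 80880357, all in the long exon. The mouse and human windows are given in pairs.
Tnrc6a, mouse 123171179: ggaaagaaAGACTgacaatgg
TNRC6A, human 24790878: ggaacgaaAGACTgacaatgg
Tnrc6b, mouse 80880240: tttgagccGGACTgatttgga
TNRC6B, human 40266061: tttgagccGAACTgatttgga
Tnrc6b, mouse 80880357: tgacaaagGAACTgaggggtg
TNRC6B, human 40266178: tgacaaagGAACTgaggggtg

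In Tnrc6c no mouse site had a listed human counterpart, although 27 of the 34 mESC windows were found in the human TNRC6C transcript with at most 4 mismatches, 21 of them on a DRACH motif. The 2 TNRC6C sites in HEK293T were both in the 3′ UTR.

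Lin28a (chr4:134003330-134018841, minus strand), the let-7 inhibitor, showed the largest fitted change of the 9 detected genes and was lower in KO. It had 121.0, 138.3 and 190.4 CPM in WT and 86.0, 73.3 and 81.5 in KO. The WT libraries spread widely, yet all 3 KO libraries lay below them, and the level was 1.87-fold lower in KO (log2 fold change −0.90 ± 0.16, SE, adjusted p = 0.00134). Lin28a was called under every setting tried, with log2 fold changes from −1.04 to −0.69. It held 2 mESC sites, both in the 3′ UTR and far from the stop codon, and 0 in heart and HEK293T. The site with the higher score was at position 134003737 (0.8514).
Lin28a, 3′ UTR: cagaaaagGGACTatgaatgt

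**Figure D4:**
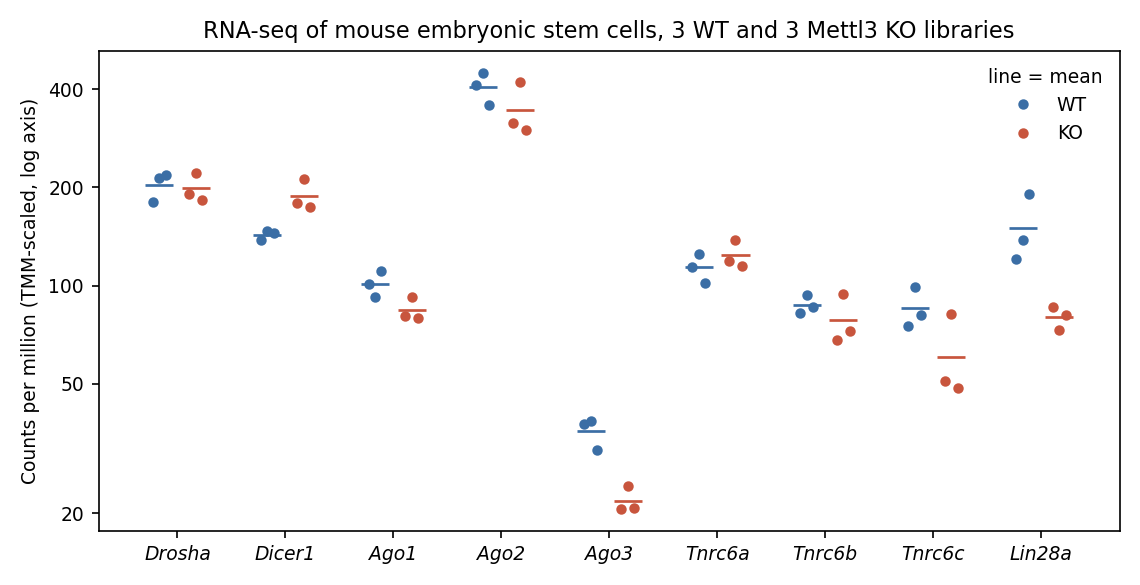
CPM of the 9 detected genes (y axis, log scale, scaled by TMM factors) in the 3 WT (blue) and 3 Mettl3 KO (red) mESC libraries, drawn in the order of replicates 1 to 3, with a line at each mean. The KO libraries lie below all WT libraries in Ago3 and Lin28a and above them in Dicer1, and the groups overlap in the other 6 genes.

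Of the 9 genes tested, 2 were called lower in KO (Ago3 and Lin28a) and 0 higher at an adjusted p of at most 0.01, while 29.7% of all 15731 genes tested were called, 17.1% higher and 12.6% lower. At an unadjusted p under 0.05, 4 genes had a lower fitted level in KO and 1, Dicer1, a higher one. At least 7336 of the 15731 genes tested had such a p, the number that passed an adjusted p of 0.05. The calls of the main test come from a fit without pairing, although same-numbered WT and KO libraries correlated. With the replicate block, which fits that pairing, 4 were called (Ago3, Lin28a and Tnrc6c lower, Dicer1 higher), while 43.5% of all genes were called. The ranges of the 3 KO and the 3 WT libraries did not overlap for 3 of the 9 genes, against 56.1% of all genes. The median log2 fold change was −0.24 over the 9 genes and −0.02 over all genes tested. Scaling by library size only left 1 of the 9 called, and moved the calls over all genes from 2687 higher and 1982 lower to 2937 and 1199. Nothing in the labels states that the libraries came from separate cultures. The study calls the mESC miCLIP2 replicates biological and describes the RNA-seq as matching the same samples. Cultures are not described for each RNA-seq library, so p-values may measure technical spread.

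**Figure D5:**
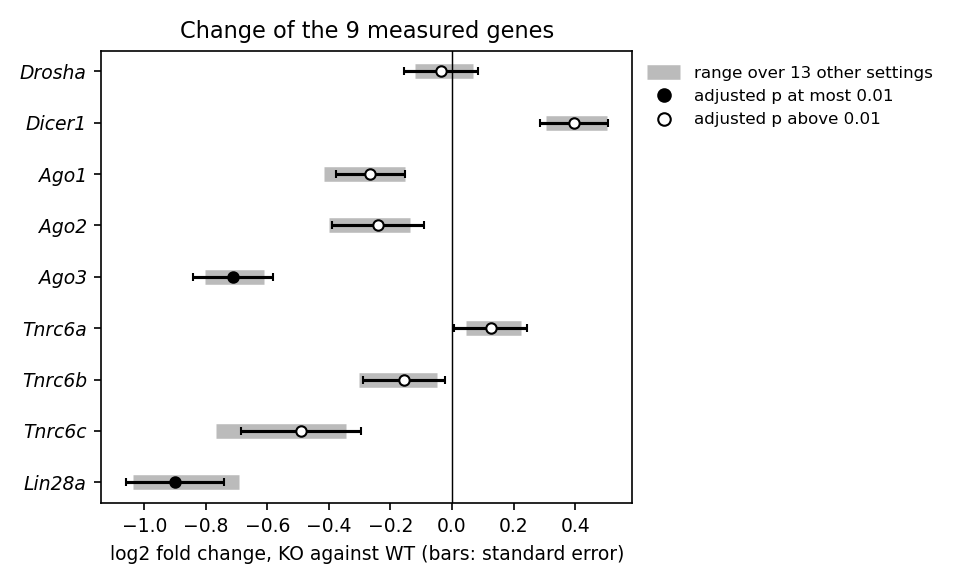
Log2 fold change of KO against WT (x axis) for the 9 detected genes, with the standard error as bars, filled points for an adjusted p of at most 0.01, and grey bands for the range over 13 other settings. Ago3 (−0.71) and Lin28a (−0.90) are the filled points, and the band of Drosha alone crosses 0.

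To compare levels between genes, CPM was divided by the exon length in kilobases. In WT, Lin28a (37.5 ± 9.05, SD, n = 3), Drosha (34.4 ± 3.5) and Ago2 (29.0 ± 3.30) were the highest, and their ranges overlapped from each to the next. Ago1 followed at 12.5 ± 1.15, then Tnrc6a at 8.95 ± 0.906 and Dicer1 at 8.56 ± 0.263, which overlapped. Tnrc6c (6.63 ± 0.975), Tnrc6b (3.69 ± 0.237) and Ago3 (2.16 ± 0.241) came last, each with a range below the one before. The level of Lin28a was 17.8 times that of Ago3, and 19.1 times with the length of the longest coding transcript. On the latter scale Drosha (44.6) came before Lin28a (42.8), and Dicer1 (14.6) before Ago1 (14.0) and Tnrc6a (13.9). In KO, Lin28a (20.1 ± 1.62) was below Drosha (33.5 ± 3.45) and Ago2 (24.6 ± 4.70), and the other genes ran from 1.32 ± 0.122 for Ago3 to 11.3 ± 1.23 for Dicer1.

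Over all genes described here, 68.7% of the mESC sites were in coding sequence (57 of 83, 95% Wilson interval 58.1 to 77.6, counting error only) and 31.3% in the 3′ UTR. Of all mESC sites placed in a coding transcript, 49.6% and 47.5% were there. Within 400 nt of the stop codon lay 13.3% of the sites in these genes and 46.2% of all. In heart at 1000 ng 74.3% (65.0 to 81.8) were in coding sequence and 11.9% near the stop codon, against 49.0% and 44.5% of all. In HEK293T the shares were 62.5% and 25.0%, against 50.1% and 45.4%, and the interval of the former (45.3 to 77.1) included the share of all sites. Internal exons of at least 2000 nt held 45.8% of these genes' mESC sites and 3.5% of all mESC sites, with 60.4% and 4.9% in heart and 28.1% and 2.9% in HEK293T. The Tnrc6 exons are the exons of this length. Sites of 1 gene are not independent, and Tnrc6c alone held 34 of the 83 mESC sites and 27 of the 57 in coding sequence. Coding sequence held 1 of the 11 mESC sites of Ago2 and 0 of those of Ago1 and Lin28a. The common motifs were GGACT (20 of 83 mESC sites, 24.1%, against 22.9% of the list), GAACT (17, 20.5%, against 14.4%) and GGACA (11, 13.3%, against 11.3%).

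Of the 83 mESC sites, 60 were at the same position in heart at 1000 ng (72.3%, 61.8 to 80.8), which is 59.4% (49.7 to 68.5) of the 101 heart sites. These intervals cover counting error only, and 28 of the 60 shared sites were in Tnrc6c. For the whole lists the shares were 59.6% and 32.7%. The overlap differed between the genes: all 9 mESC sites of Tnrc6a, all 7 of Tnrc6b, 11 of 12 of Dicer1 and 28 of 34 of Tnrc6c were shared, but 2 of 5 of Drosha, 1 of 3 of Ago1, 2 of 11 of Ago2 and 0 of 2 of Lin28a. Between species, 6 of the 83 mESC sites and 9 of the 101 heart sites had a listed HEK293T site in a window with at most 4 mismatches, whereas 57 and 80 windows were found in the human transcript within this limit.

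Other genes of the pathway were taken as 5 lists of 63 genes, all of which could be tested. Of these, 8 were called higher and 9 lower in KO (27.0%, against 29.7% of all genes), with a median log2 fold change of −0.10. The replicate block gave 26 calls, 10 higher and 16 lower, scaling by library size only gave 8 higher and 4 lower, and leaving out WT replicate 1 or KO replicate 1 gave 10 and 11 calls. Of 12 genes of nuclear processing and export, 1 was lower and 0 higher, namely Ncbp1, a cap-binding protein (−0.50 ± 0.13, SE, adjusted p = 0.00961). The exporter Xpo5, with 2371, 2559 and 3081 reads in the WT libraries and 2181, 2946 and 2386 in the KO libraries, did not pass (−0.37 ± 0.15, SE, adjusted p = 0.0592). Of 10 Dicer partners and factors that load Argonaute, 0 were called by edgeR. An unadjusted p under 0.05 was found for 5, all negative, and for at least 7336 of the 15731 genes tested in either direction. DESeq2 called 2 of the 10, and 5437 of 18950 genes. Among the 10 was Tarbp2, the RNA-binding partner of Dicer1, at 26.1 ± 2.78 CPM in WT and 26.2 ± 2.61 in KO (SD, n = 3).

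Of 10 Argonaute cofactors and turnover factors, 3 were higher and 1 lower (40.0%, against 29.7% of all genes tested). Ajuba, a LIM-domain protein that binds Argonaute, had 1242, 1163 and 1633 reads in the WT libraries and 4171, 4312 and 3930 in the KO libraries, without overlap (log2 fold change 1.34 ± 0.18, SE, adjusted p = 0.000246), and it held 17 mESC sites. Limd1, of the same family (0.72), and the RNA-binding protein Larp1 (0.54) were also higher, and Fam120a was lower (−0.49). Ago4, the remaining Argonaute, was weakly detected, at 3.08 ± 1.07 CPM in WT and 1.78 ± 0.245 in KO (SD, n = 3), and did not pass (−0.79 ± 0.31, SE, adjusted p = 0.0577), though it was called lower without WT replicate 3 (−1.05, adjusted p = 0.00564). It had 0 sites in mESC and 6 in heart at 1000 ng.

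The let-7 axis, the factors that act on let-7 and its well-known targets, had 5 of 15 genes higher and 3 lower. Called were thus 53.3% of this list, against 29.7% of all genes tested. Lin28b, the paralogue of Lin28a with the same inhibitory role, moved opposite to it: the WT libraries had 325, 384 and 441 reads and the KO libraries 1194, 1205 and 1369, 2.73-fold higher and without overlap (log2 fold change 1.45 ± 0.16, SE, adjusted p = 8.4e-05). This is 16.9 ± 3.4 CPM in WT against 46.3 ± 5.07 CPM in KO (SD, n = 3), and Lin28b held 0 sites in mESC and heart. The exonuclease Dis3l2, which degrades uridylated let-7 precursors, was higher (0.71). Among let-7 targets, the cyclins Ccnd2 (2.68 ± 0.35, SE) and Ccnd1 (1.16 ± 0.22) and the transcription factor Mycn (0.66) were higher, while the chromatin protein Hmga1 (−1.18 ± 0.13), E2f2 (−0.87) and the RNA-binding protein Igf2bp3 (−0.74) were lower. The call of Ccnd1 was lost without WT replicate 1 (1.07, adjusted p = 0.0148).

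The 16 silencing effectors act downstream of Tnrc6 in decapping, translational repression and decay. Of all genes tested, 29.7% were called, 12.6% lower and 17.1% higher. In this list 25.0% were called, with 4 genes lower and 0 higher. The 4 lower genes were Edc4, a scaffold of the decapping complex (−0.99), Pabpc1, the poly(A)-binding protein (−0.74), Patl1 (−0.68) and Gigyf2 (−0.44). This list held 71 sites in mESC and 76 in heart at 1000 ng, in 14 of its genes each.

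Transcripts that host microRNAs numbered 25 in the list, of which 15 were tested. Mature microRNAs were not measured here, so these values describe the host transcripts only. 1 was higher and 8 were lower in KO (60.0%, against 29.7% of all genes tested), with a median log2 fold change of −0.50. Meg3 and Mirg, neighbouring noncoding RNAs of an imprinted locus that carries many microRNAs, were both lower. Meg3 had 206, 282 and 101 reads in the WT libraries against 31, 42 and 24 in KO, and Mirg 69, 66 and 52 against 10, 18 and 11. Their log2 fold changes were −2.83 ± 0.34 and −2.52 ± 0.31 (SE, adjusted p = 0.000151 and 0.000159). Mir142hg, the host of miR-142, had 44, 55 and 38 reads in the WT libraries and 1, 2 and 3 in the KO libraries, a ratio of KO to WT of 0.0367 (95% interval 0.0132 to 0.0820, counting error only). Gm2694 (−1.80) and Dleu2, the host of miR-15a and miR-16-1 (−1.02), were lower as well. H19, the host of miR-675, had 233, 275 and 213 reads in the WT libraries and 2950, 973 and 885 in the KO libraries and was the one higher (2.53 ± 0.45, SE, adjusted p = 0.00129). KO replicate 1 was far above the other KO libraries for this gene, and without it the log2 fold change was 1.64.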

How the data were processed

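Values were used as the authors deposited them. Gene counts are whole, unnormalised read counts that the authors made with STAR 2.6.1b on GRCm38.p6 and HTSeq 0.12.4 on the reverse strand. The site lists hold 1 score per site deposited by the authors after STAR 2.7.3a, UMI-tools 1.0.0, PureCLIP peak calling and m6Aboost. In mESC and HEK293T it is the m6Aboost score, and in heart its scale is not stated, so it was used for ranks only. The KO miCLIP2 samples were not used here.

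Lines that name no gene were left out: reads in no feature (17.6 to 22.6% of all lines per library), ambiguous (0.813 to 0.988%), not aligned (3.76 to 4.67%) and not uniquely aligned (13.9 to 15.2%). The edgeR package (4.0.16, under R 4.3.3) gave the tests of KO against WT (two-sided glmQLFTest after filterByExpr, TMM scaling and glmQLFit) over 15731 genes with Benjamini-Hochberg adjustment at 0.01, after a check on simulated counts. Deviations from the group means correlated between same-numbered WT and KO libraries (r = 0.224, 0.554 and 0.443 over 10854 genes). The main test fitted genotype only and left this pairing out. The replicate block, run as an alternative, fits it. Replicates of a group differed by more than sampling noise.

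Sites were placed in exons on the same strand and in the longest coding transcript with Python 3.11.15, pandas 2.3.3, NumPy 2.4.6, SciPy 1.17.1 and Matplotlib 3.10.9, using GENCODE M21 and RefSeq for mouse and GENCODE 44 for human. The authors used GENCODE M23 and 31. Sites were shared at the same position and strand. Mouse and human windows of 21 bases were matched at 4 mismatches or fewer. Named are the 10 genes, Mettl3, Ago4, Xpo5, Tarbp2, Lin28b and, in the other lists, called genes whose log2 fold change reached 1 or −1 (at most 5 per direction), with each gene's highest-scoring mESC site, every site matched in all 3 cell sources and every site outside DRACH. Ncbp1, Limd1, Larp1, Fam120a, Dis3l2, Mycn, E2f2, Igf2bp3, Edc4, Pabpc1, Patl1, Gigyf2, Olig2, Ttn, Gata4, Foxa2 and the MIR1306 and identical-window sites were named after their values were seen. So were Thy1, Pdgfrb, Sox1, Nes, Tubb3 and Pax6. The members and lists were chosen with earlier results of these data known. As alternatives, DESeq2 1.42.0, DESeq2 size factors within edgeR, library size only, 2 filters, an adjusted p of 0.05, the replicate block, each library left out, and other length, site and mismatch rules were run. Leaving out replicate 2 of both genotypes was chosen after seeing the data.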

Additional observations from a re-analysis of the deposited data

How the results depend on the processing

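Of the 9 genes tested, 2 were called, and 1 (Lin28a) with scaling by library size only, 4 without the filter on low counts and 4 with the replicate block. Leaving out 1 library gave 1 to 3 calls, the lowest without KO replicate 1. Over all genes the 4669 calls became 7336 at an adjusted p of 0.05, 3042 without replicate 2 of both genotypes, and 2761 to 5412 when 1 library was left out, with 3108 without WT replicate 1, 2761 without KO replicate 1 and 3109 without KO replicate 3. The 17 pathway genes called became 26 with the block and 10 to 19 when 1 library was left out. Apart from Dicer1, Tnrc6c, Mettl3 and these counts, the block changed no other call of a gene run under all settings. The sign of Drosha turned with library size only (0.070) and lay between −0.12 and 0.029 when 1 library was left out. The log2 fold change of Tarbp2, 0.0040, turned to −0.0046 with the size factors of DESeq2 and −0.0020 without replicate 2 of both genotypes, and lay between −0.076 and 0.089 when 1 library was left out. The cause of these changes was not tested. With scores of at least the list median, by construction fewer sites remained, 37 in mESC and 17 in HEK293T, and the shared sites made up 41.4% of the heart sites. The lists give no depth, so sites missed for lack of reads cannot be told apart from unmodified positions. Per kilobase of the longest coding transcript the WT levels of Dicer1 and Tnrc6a moved from 8.56 to 14.6 and from 8.95 to 13.9 CPM, each by over 1.5 times. The other settings for sites, positions and matched windows moved each value by less than that.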
